A study of Danio rerio with 10 samples.

Results

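The effect of losing rpgrip1l was compared between 5 days post fertilization (dpf) and 2 dpf in RNA sequencing of pooled whole zebrafish. All 10 of the 10 libraries entered the comparison, 2 per group. The 5 dpf groups were rpgrip1l-/- and WT. The 2 dpf groups were mutants with a curled-down tail (CDT), mutants whose tail looked normal, and WT. The value of interest was a difference of differences on the log2 scale: mutant minus WT at 5 dpf, less the mean of the CDT and normal-looking mutants minus WT at 2 dpf. A positive value therefore means that the mutant level, relative to WT of the same age, was higher at 5 dpf than at 2 dpf. The rpgrip1l-/- embryos came from crosses between homozygous mutants and carried a frameshift allele made on the AB background, whereas WT embryos came from AB crosses, so the parents differed with genotype at both ages. Each library was a pool of 30 to 35 embryos. At 2 dpf the mutants were sorted by tail shape, while the sources used here do not say whether the 5 dpf rpgrip1l-/- pools were sorted, so the mixture of tails may differ between the ages. The methods state in general that several clutches were used, and the mutants of either tail form are described as siblings, but the clutch of each pool is not given. The p-values measure only the spread between these libraries, and the test draws the spread of each gene towards that of other genes.

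Rpgrip1l is a scaffold protein of the transition zone, the region at the base of the cilium that controls which proteins enter and leave. Cilia of the zebrafish move cerebrospinal fluid, and their loss in the embryo is known for bending the body axis downwards, through signals that include the Reissner fiber and urotensin-related peptides. Cilia also transduce hedgehog signals and, as photoreceptor outer segments, carry opsins. Between the ages compared here the embryo hatches and becomes a larva whose liver, exocrine pancreas, gut and retina are starting to function.

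Each library held between 9101260 and 17536200 gene counts. The labelled ages were borne out by hatching enzyme he1.1, with 5020 to 14665 counts at 2 dpf and 7 to 31 at 5 dpf. Transcripts of the targeted gene, RPGRIP1L (ENSDARG00000051754), did not separate the genotypes, with 0.826 and 1.79 CPM in rpgrip1l-/- and 1.39 and 1.39 CPM in WT at 5 dpf. At 2 dpf, 2.13 and 1.14 CPM were measured in CDT, 2.04 and 1.77 CPM in normal-looking and 1.57 and 2.44 CPM in WT embryos. Its effects were -0.09 at 5 dpf (SE 0.44) and -0.17 at 2 dpf (SE 0.36), with a difference of 0.08 (SE 0.57, edgeR adjusted p = 0.943), so its level does not check the labels. Gene symbols are printed as the identifier table spells them.

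One pair of libraries stood apart at 2 dpf. Of the genes with at least 100 CPM (counts scaled by effective library size) in 5 dpf WT, 24 had at most 3 counts in each of the 4 mutant libraries at 2 dpf, among them the trypsin gene prss59.1, the chymotrypsin genes ctrb.1, ctrb.2 and ctrb.3, the myelin gene mbpa and FABP6 of the gut. In both 2 dpf WT libraries every one of these 24 was present, with 6 to 318 counts. Their 2 dpf WT level was a steady share of the 5 dpf WT level, with a median of 0.863% in replicate 1 (range 0.352% to 1.19%) and 0.923% in replicate 2 (range 0.569% to 1.31%). The median was 0.0116% when the 2 dpf mutants were set against the 5 dpf mutants. That low mutant share follows from the limit of 3 counts by which the genes were chosen, so it adds nothing. The origin of this level was not tested. It touches mainly genes that are far higher at 5 dpf: 528 of the 21016 genes tested had a 2 dpf WT level of which at least 25% could be such a share, and they are called set apart below and counted separately.

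The scaling of the 2 dpf libraries also bears on every direction at that age. TMM scaling, which centres each library on the bulk of its genes, gave the 2 dpf mutants factors of 1.17 to 1.22 and 2 dpf WT 0.815 and 0.840. Under TMM the median gene was at -0.06 at 2 dpf and at 0.00 at 5 dpf, whereas with library size alone it was at 0.46 and 0.10. The 10% most abundant genes, above 58.7 CPM, had a median 2 dpf effect of -0.40 and the 10% least abundant 0.19. At 5 dpf the same genes were at -0.02 and -0.04. Directions at 2 dpf are thus relative to the bulk of genes, and values under library size alone are given for most of the lists described and for a number of the genes.

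The genotype effect was broad at 2 dpf and narrow at 5 dpf. Calls were made at an adjusted p under 0.05 (edgeR quasi-likelihood F test, p adjusted after Benjamini and Hochberg). At 2 dpf 8721 of 21016 genes differed between mutant and WT (41.5%), 3417 higher (16.3%) and 5304 lower (25.2%). At 5 dpf 1231 differed (5.86%), 458 higher (2.18%) and 773 lower (3.68%). The effect itself differed between the ages in 4917 genes (23.4%), 3080 with a higher value at 5 dpf (14.7%) and 1837 with a lower one (8.74%). Under library size alone these were 634 and 5292, since the whole 2 dpf distribution moves. Without the genes set apart, 4788 differences remained, 2983 higher and 1805 lower. The share called for the difference rose with abundance, from 4.57% in the 10% least abundant genes to 59.7% in the 10% most abundant. Shares of lists below are set beside 23.4% without matching for abundance. The comparison at 2 dpf rests on 6 libraries and that at 5 dpf on 4. The median standard error was 0.17 and 0.18, and the median absolute effect was 0.40 and 0.20. Both standard errors draw on a spread per gene that all groups share, so they do not measure the noise at each age. Chi-square per degree of freedom between replicates, not corrected for depth, was 7.74 in 5 dpf mutants and 7.57 in 5 dpf WT. At 2 dpf it was 5.96 in CDT, 2.82 in normal-looking and 3.09 in WT embryos.

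Each gene was then placed by its 3 calls. Most differences belonged to genes with an effect called at 2 dpf and not at 5 dpf: 4022 genes (19.1%), 1487 higher and 2535 lower in the mutants at 2 dpf. The opposite class, called at 5 dpf and not at 2 dpf, held 258 genes (1.23%), 126 higher and 132 lower at 5 dpf. In 147 genes (0.699%) the effect reversed, being called at both ages with opposite signs: 100 were lower in 2 dpf mutants and higher in 5 dpf mutants, and 47 the other way. A further 155 genes (0.738%) changed in one direction by different amounts, and 333 (1.58%) kept their effect, with both ages called, the same sign, and a 95% interval of the difference within 1 on the log2 scale in either direction. Of the 155, 42 were set apart. The genes set apart numbered 74 in the 2 dpf class, 7 in the 5 dpf class, 5 among the reversed and 3 among the kept. The largest class with any call held 4204 genes (20%) called at 1 age with a difference that was not called, so a call at 1 age alone did not show that the ages differed. A further 335 genes (1.59%) had a called difference with neither age called, and 99 (0.471%) were called at both ages with a difference that was not resolved. Of the kept genes, 89 were higher and 244 lower in the mutants. Altogether 734 genes were called at both ages, which is 59.6% of the 5 dpf calls and 8.42% of the 2 dpf calls, and 587 of them (80.0%) had the same sign. Across all genes tested, which are not independent replicates and share library preparation, the 2 effects had a Pearson correlation of 0.20 and a Spearman correlation of 0.17.

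**Figure D1:**
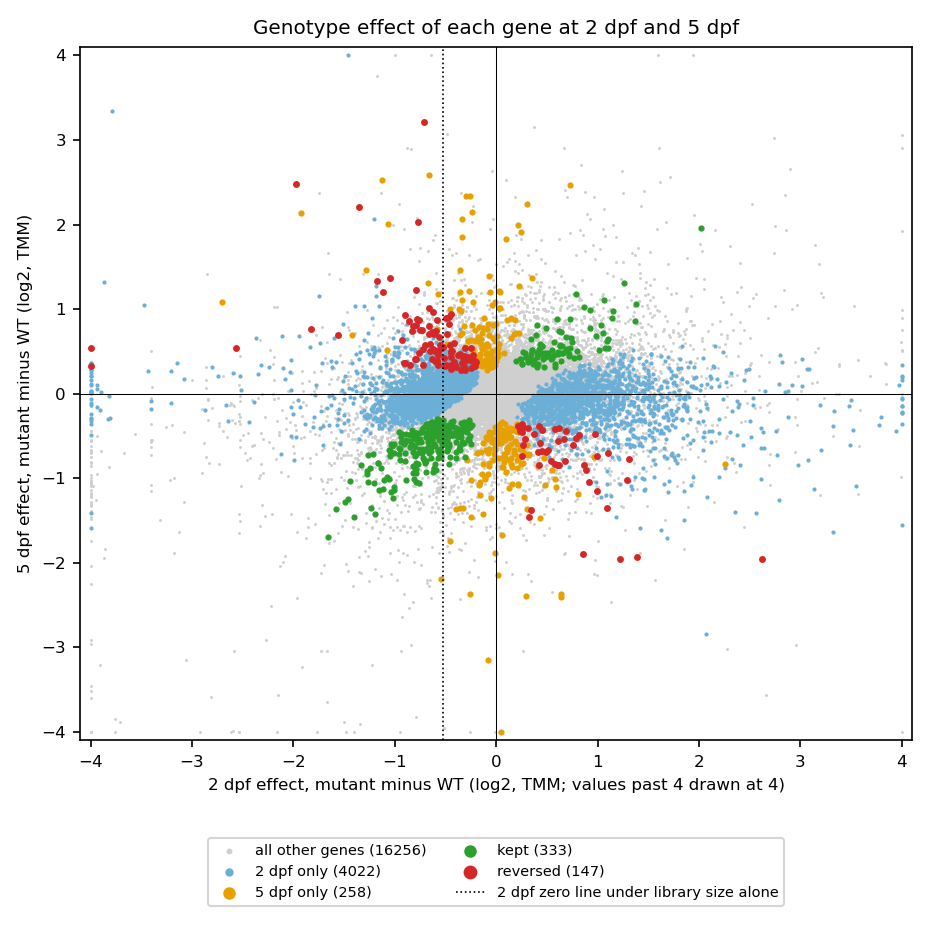
Each point is 1 of 21016 genes, with its 2 dpf effect on the x axis and its 5 dpf effect on the y axis (log2, mutant minus WT, TMM scaling; values past 4 are drawn at 4). The cloud is wider along the 2 dpf axis, the 147 reversed genes have effects of opposite sign, the 333 kept genes effects of like sign, and the dotted line shows where 0 at 2 dpf would lie under library size alone.

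Several of these counts rest on single libraries. Without replicate 2 of the 5 dpf mutants, 498 genes were called at 5 dpf, 113 were of the 5 dpf class, 66 reversed and 125 kept. Without replicate 1 of 5 dpf WT, 730 were called at 5 dpf and 177 kept, and without replicate 2 of 5 dpf WT, 97 reversed and 166 were of the 5 dpf class. Leaving out either 2 dpf WT library left 91 reversed genes, and without its replicate 2, 2593 genes were of the 2 dpf class and 1160 had a lower difference. For many single genes below, the number of the 10 fits with 1 library left out that gave the same class is printed.

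Genes of the circadian clock held the largest share of lower differences among the 38 lists examined, and many were higher in mutants at 2 dpf. Of 46 tested genes of the clock loop and its outputs, 29 had a lower difference and 1 a higher one, a called share of 65.2% beside 23.4% over all genes. At 2 dpf 22 were higher and 4 lower in mutants, beside 16.3% and 25.2% over all genes. At 5 dpf 10 were lower and none higher, beside 3.68% lower over all genes. The median effect was 0.44 at 2 dpf and -0.25 at 5 dpf, and the median difference -0.85, beside 0.06 over all genes tested. Under library size alone 32 differences were lower and none higher, beside 5292 lower and 634 higher among all 21016 genes tested. In 6 members both effects were called with opposite signs: PER2, cry5, tefa, CRY2 and both identifiers of CRY1.

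PER2, a repressor of the clock that light induces in zebrafish, had 9.46 and 10.8 CPM in rpgrip1l-/- and 28.1 and 49.1 CPM in WT at 5 dpf. At 2 dpf, 31.2 and 25.9 CPM were measured in CDT, 29.6 and 32.1 CPM in normal-looking and 10.3 and 12.5 CPM in WT embryos. Mutant and WT libraries did not overlap at either age, and the mutant level was about that of WT at the other age. That lack of overlap was a condition of the rule by which PER2 and other genes below were named, so it adds nothing. Groups that do not overlap, on opposite sides at the 2 ages, were seen in 9.48% of all genes tested (54.5% without overlap at 2 dpf and 47.1% at 5 dpf). Its effects were -1.93 at 5 dpf (SE 0.18) and 1.39 at 2 dpf (SE 0.17), with a difference of -3.32 (SE 0.25, edgeR adjusted p = 5.53e-10). cry5, the zebrafish gene of a light-induced DNA photolyase, had 9.08 and 8.94 CPM in rpgrip1l-/- and 14 and 19.6 CPM in WT at 5 dpf. At 2 dpf, 17.9 and 17.2 CPM were measured in CDT, 17.5 and 17.3 CPM in normal-looking and 8.55 and 10.4 CPM in WT embryos, again with no overlap at either age. Its effects were -0.9 at 5 dpf (SE 0.16) and 0.89 at 2 dpf (SE 0.15), with a difference of -1.79 (SE 0.22, edgeR adjusted p = 1.71e-06).

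The PAR bZIP factor tefa, which acts on clock output genes and responds to light in zebrafish, had 75.3 and 74.9 CPM in rpgrip1l-/- and 121 and 148 CPM in WT at 5 dpf. At 2 dpf, 131 and 136 CPM were measured in CDT, 130 and 119 CPM in normal-looking and 96 and 96.1 CPM in WT embryos. Its effects were -0.84 at 5 dpf (SE 0.1) and 0.42 at 2 dpf (SE 0.09), with a difference of -1.27 (SE 0.13, edgeR adjusted p = 1.95e-07). The cryptochromes, which repress the CLOCK and BMAL1 pair, moved together: CRY1 (ENSDARG00000011583) was at -0.79 at 5 dpf and 0.54 at 2 dpf, CRY1 (ENSDARG00000045768) at -0.68 and 0.45, and CRY2 at -0.69 and 0.41. The first CRY1 and CRY2 kept their class in 9 of the 10 fits.

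Other clock genes changed at 2 dpf and not at 5 dpf, so the group did not move as 1 block. PER3 had 51.6 and 53.3 CPM in rpgrip1l-/- and 44.8 and 47.4 CPM in WT at 5 dpf. At 2 dpf, 21.5 and 20.7 CPM were measured in CDT, 25.4 and 23.3 CPM in normal-looking and 7.21 and 6.48 CPM in WT embryos. Its effect was 1.72 at 2 dpf (SE 0.12) and 0.19 at 5 dpf (SE 0.1), and the difference was -1.53 (edgeR adjusted p = 1.89e-07). PER1 (ENSDARG00000012499), tefb, NR1D2, bmal2 and 1 identifier of BMAL1 (ENSDARG00000035732) were likewise higher in mutants at 2 dpf with a called difference. NFIL3 was the single clock gene with a higher difference (0.55; 3 of 10 fits). nfil3-6 and rorca were lower at 5 dpf, at -1.23 and -0.76, with a called difference and 2 dpf effects of 0.27 and 0.23 that were not called (0.8 and 0.75 under library size alone, where both left the class). The hour of collection is not given in the sources used here, and hour and group cannot be told apart.

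**Figure D2:**
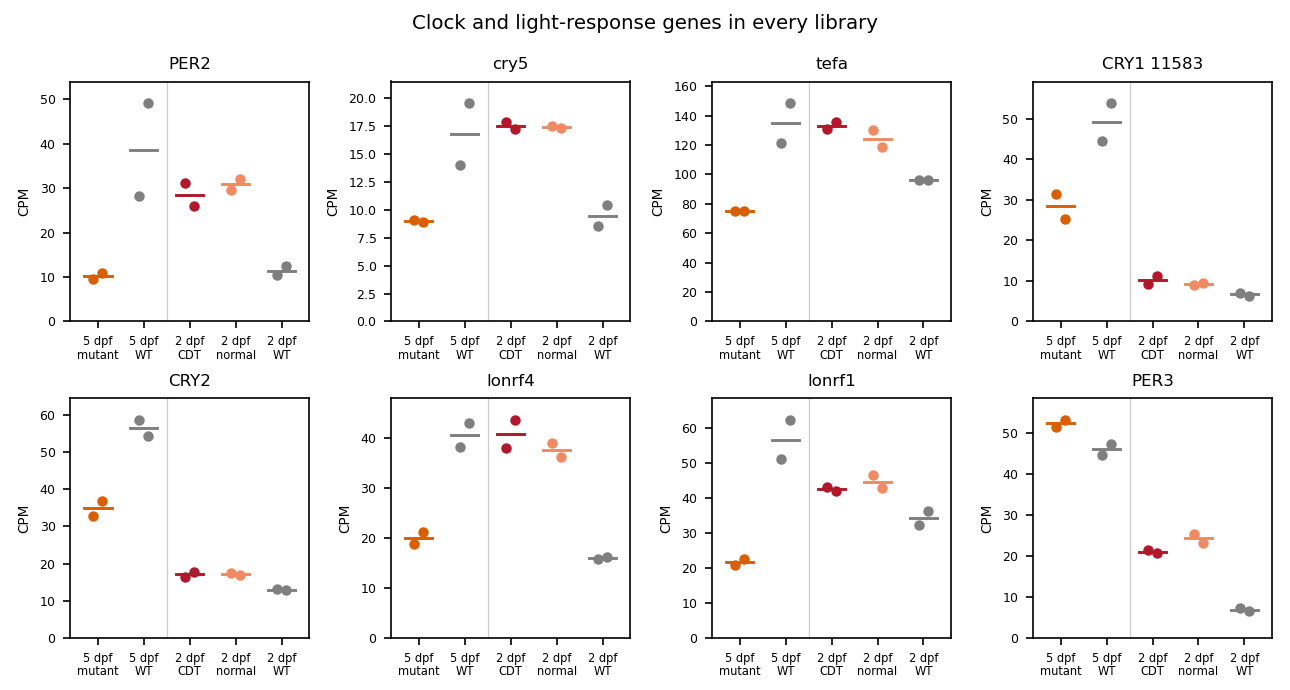
CPM in each of the 10 libraries (points, with the group mean as a bar) for 8 clock or light-response genes; digits after a symbol are the end of the identifier. In the first 7 panels the 5 dpf mutants lie below 5 dpf WT and the 2 dpf mutants above 2 dpf WT; PER3 differs at 2 dpf alone.

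The genes that reversed downwards with the largest differences by the naming rule were PER2, NACC1, UBP1, lonrf4 and mast4. lonrf4, which encodes a protein with LON and RING finger domains, had 18.8 and 21.1 CPM in rpgrip1l-/- and 38.1 and 42.8 CPM in WT at 5 dpf. At 2 dpf, 38 and 43.5 CPM were measured in CDT, 38.9 and 36.1 CPM in normal-looking and 15.8 and 16.2 CPM in WT embryos. The groups did not overlap at either age, as the rule requires. Its effects were -1.02 at 5 dpf (SE 0.11) and 1.29 at 2 dpf (SE 0.11), with a difference of -2.31 (SE 0.16, edgeR adjusted p = 1.13e-10). Its relative lonrf1, named here after its values were seen, was at -1.38 at 5 dpf and 0.35 at 2 dpf (9 of 10 fits). NACC1, UBP1 and mast4 rest on few counts: their differences were -2.76, -2.44 and -2.15, and their class held in 0, 7 and 5 of the 10 fits with a library left out.

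TYR, the tyrosinase of pigment cells, and the muscle myosins below were chosen for mention after their values were seen. TYR was at -0.84 at 5 dpf and 0.6 at 2 dpf. FKBP5, a glucocorticoid-induced immunophilin, was at -0.84 and 0.62 (9 of 10 fits), and is one of the genes set apart. The muscle myosins myhz1.1 and myhz1.2, adjacent copies whose reads may be shared, were at -0.43 and -0.38 at 5 dpf and 0.45 and 0.42 at 2 dpf (8 of 10 fits each). The complement gene c3a.3 was at -0.77 and 1.31, the reverse in sign of most other liver genes at 2 dpf. Of the 47 genes that reversed in this direction, 30 kept that class under TMM, upper quartile and library size scaling alike.

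The 100 genes that reversed upwards, lower in mutants at 2 dpf and higher at 5 dpf, included genes of inflammation, collagen processing and embryonic globin. This direction depended more on scaling, since 20 of the 100 kept their class under all 3 scalings. The naming rule gave ctsbb, PRPH2, DAO, DPEP1 and irg1l. DAO (ENSDARG00000035602), D-amino acid oxidase and 1 of 3 copies with that symbol, had 2.18 and 3.65 CPM in rpgrip1l-/- and 0.463 and 0.568 CPM in WT at 5 dpf. At 2 dpf, 44 and 42.1 CPM were measured in CDT, 30.7 and 29.3 CPM in normal-looking and 145 and 138 CPM in WT embryos. The 5 dpf mutants lay above 5 dpf WT and all 2 dpf mutants below 2 dpf WT, as the rule requires. CDT lay above normal-looking mutants (edgeR adjusted p = 0.0264). The effects were 2.48 at 5 dpf (SE 0.33) and -1.98 at 2 dpf (SE 0.09), with a difference of 4.45 (SE 0.33, edgeR adjusted p = 4.37e-10). irg1l had 15.2 and 16.4 CPM in rpgrip1l-/- and 3.38 and 4.35 CPM in WT at 5 dpf. At 2 dpf, 12 and 12.7 CPM were measured in CDT, 17.3 and 12.1 CPM in normal-looking and 24.7 and 20.8 CPM in WT embryos. Its effects were 2.03 at 5 dpf (SE 0.19) and -0.77 at 2 dpf (SE 0.13), with a difference of 2.8 (SE 0.23, edgeR adjusted p = 3.22e-09); under library size alone the 2 dpf effect was -0.25 and the gene left this class. The other 3 are set apart: ctsbb had no count in the 4 mutant libraries at 2 dpf and 0.314 and 0.563 CPM in WT, at least 2.08-fold lower in mutants with 3 counts per library as the floor, PRPH2 (ENSDARG00000038018), of photoreceptor discs, had none and 0.549 and 0.376 CPM, at least 2.19-fold lower, and DPEP1 had 0 to 6 counts in mutants and 7 in each WT library. Beyond them the rule, with the genes set apart left out, added SLC12A1, SOAT2 and SERPINH1 after the values were seen.

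SERPINH1 (ENSDARG00000019949), the collagen chaperone also known as HSP47, had 68.2 and 87.1 CPM in rpgrip1l-/- and 35.4 and 24.7 CPM in WT at 5 dpf. At 2 dpf, 75.8 and 77.4 CPM were measured in CDT, 67.7 and 55.4 CPM in normal-looking and 144 and 139 CPM in WT embryos. Mutants were higher than WT at 5 dpf and lower at 2 dpf in every library, as the naming rule requires. The effects were 1.37 at 5 dpf (SE 0.13) and -1.05 at 2 dpf (SE 0.1), with a difference of 2.42 (SE 0.17, edgeR adjusted p = 1.87e-10). The other SERPINH1 identifier (ENSDARG00000075954) had no call, with a difference of 0.13. Of the prolyl 4-hydroxylase subunits that modify collagen, P4HA1 was at 0.79 at 5 dpf and -0.82 at 2 dpf, and P4HA2 at 0.52 and -0.61 (9 and 7 of 10 fits). The 2 dpf effect of P4HA2 under library size alone was -0.08 and it left this class, while P4HA1 stayed at -0.29; both were named after their values were seen. SOAT2, which esterifies cholesterol, was at 1.33 and -1.17 (8 of 10 fits), and SLC12A1, a kidney salt transporter, at 0.76 and -1.82, with a class that held in 1 of the 10.

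Inflammatory and immediate early genes, grouped for description after their values were seen, were of 2 kinds. In the first the effect reversed. PTGS2 (ENSDARG00000010276), a cyclooxygenase of inflammation, had 32.9 and 26.4 CPM in rpgrip1l-/- and 10.9 and 14.8 CPM in WT at 5 dpf. At 2 dpf, 3.19 and 4.58 CPM were measured in CDT, 3.06 and 4.53 CPM in normal-looking and 10.3 and 6.39 CPM in WT embryos, with effects of 1.21 at 5 dpf (SE 0.18) and -1.12 at 2 dpf (SE 0.21), with a difference of 2.33 (SE 0.28, edgeR adjusted p = 1.50e-06). CEBPB, a transcription factor of the acute phase, had 375 and 446 CPM in rpgrip1l-/- and 235 and 209 CPM in WT at 5 dpf. At 2 dpf, 46.9 and 51.4 CPM were measured in CDT, 49.2 and 45.1 CPM in normal-looking and 83.4 and 82.4 CPM in WT embryos. Its effects were 0.89 at 5 dpf (SE 0.1) and -0.79 at 2 dpf (SE 0.09), with a difference of 1.67 (SE 0.13, edgeR adjusted p = 1.06e-09), and at 2 dpf -0.26 under library size alone. nfkbiaa, an inhibitor of NF-kB, was at 0.75 and -0.73, and GADD45B (ENSDARG00000027744) at 0.72 and -0.63. With library size alone as the scaling, their 2 dpf effects were -0.21 and -0.1 and both left this class.

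In the second kind the 5 dpf effect was called and the 2 dpf effect was not. FOSL1, an AP-1 subunit, had 28.7 and 58.8 CPM in rpgrip1l-/- and 8.28 and 9.02 CPM in WT at 5 dpf. At 2 dpf, 1.89 and 1.46 CPM were measured in CDT, 1.21 and 0.722 CPM in normal-looking and 1.41 and 1.69 CPM in WT embryos. The 5 dpf mutant libraries were above all 8 others, and the effects were 2.34 at 5 dpf (SE 0.22) and -0.3 at 2 dpf (SE 0.43), with a difference of 2.64 (SE 0.52, edgeR adjusted p = 0.000592). JUND and KLF4 were at 2.00 and 2.25 at 5 dpf and at 0.21 and 0.3 at 2 dpf. ATF3 was at 1.11 and -0.34, NR4A1 at 1.08 and -0.02, the other PTGS2 identifier (ENSDARG00000004539) at 1.05 and -0.04, JUN at 0.59 and -0.09 and BTG2 at 0.72 and -0.14, all with a called difference. FOSL1 and ATF3 stayed in this class under library size alone, whereas JUND, KLF4, NR4A1, PTGS2 (ENSDARG00000004539), JUN and BTG2 left it, with 2 dpf effects of 0.73, 0.83, 0.51, 0.49, 0.44 and 0.39. FOS did not follow them: it was higher at both ages, by 0.99 and 0.93 (class in 6 of 10 fits), and is set apart. On the list of innate immunity and complement as a whole, 7 of 56 genes had a higher and 3 a lower difference, a share of 17.9% that lies below the 23.4% over all genes. Under library size alone 5 differences on this list were higher and 8 lower.

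**Figure D3:**
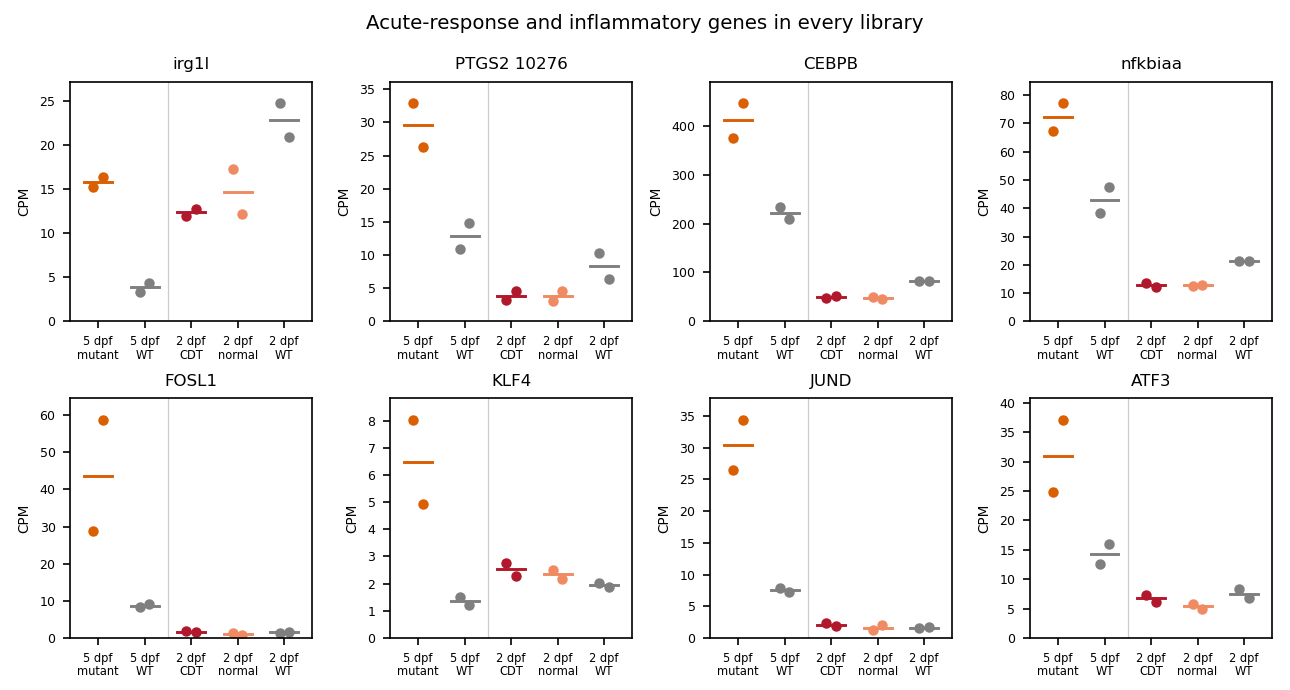
CPM in each library (points) with the group mean (bar) for 8 acute-response or inflammatory genes; digits after a symbol are the end of the identifier. In all 8 the 5 dpf mutants lie above 5 dpf WT; in the upper row the 2 dpf mutants lie below 2 dpf WT, and in the lower row the 2 dpf effects were not called.

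Alpha globins reversed upwards as well, with adjacent copies that may share reads. On the erythroid list 15 of 26 genes had a higher and 6 a lower difference, a called share of 80.8% beside 23.4% over all genes. Under library size alone the higher and lower differences were 5 and 7. hbae3, an embryonic alpha globin, had 653 and 739 CPM in rpgrip1l-/- and 496 and 603 CPM in WT at 5 dpf. At 2 dpf, 1496 and 1574 CPM were measured in CDT, 1284 and 1252 CPM in normal-looking and 2271 and 2324 CPM in WT embryos. Mutants were above WT at 5 dpf and below it at 2 dpf, with effects of 0.34 at 5 dpf (SE 0.09) and -0.72 at 2 dpf (SE 0.08), with a difference of 1.06 (SE 0.12, edgeR adjusted p = 9.62e-07) (8 of 10 fits). hbae5, hbae1.2 and hbae1.3 had 5 dpf effects of 0.41, 0.5 and 0.51 and 2 dpf effects of -0.79, -0.66 and -0.43 (9, 7 and 9 of 10 fits). Under library size alone the 2 dpf effect of hbae1.3 was 0.09 and that of hbae1.2 -0.13. Other genes of red cells, named after their values were seen, had other patterns: alas2, of haem synthesis, was higher at 5 dpf (0.81) with -0.04 at 2 dpf (0.49 under library size alone, where it left the class), and tfr1a, the transferrin receptor, was higher at 2 dpf (1.46; 8 of 10 fits). In bulk tissue, fewer cells of a type and less RNA per cell cannot be told apart.

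SLC4A1 (ENSDARG00000024560), which carries the symbol of the red cell anion exchanger band 3, had 0.901 and 1.27 CPM in rpgrip1l-/- and 6.36 and 4.92 CPM in WT at 5 dpf. At 2 dpf, 9.33 and 9.15 CPM were measured in CDT, 3.62 and 3.15 CPM in normal-looking and 5.88 and 7.51 CPM in WT embryos. It was lower in 5 dpf mutants, at -2.37 (SE 0.29) and the difference was -2.11 (edgeR adjusted p = 0.000102). Its mean 2 dpf effect of -0.26 joined groups on either side of WT, since CDT exceeded normal-looking mutants by 1.46 (edgeR adjusted p = 0.000933). Taken singly, normal-looking mutants were called lower than WT at 2 dpf (-0.99, edgeR adjusted p = 0.00189), while CDT (0.47) were not called. The class of this gene therefore rests on the mean of the tail groups. The second SLC4A1 identifier (ENSDARG00000012881), more abundant, went the other way, with effects of 0.72 at 5 dpf and 0.19 at 2 dpf (9 of 10 fits).

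Among the other genes called at 5 dpf and not at 2 dpf, the naming rule gave CH25H, PDE6H, hpxa, tnfb and hist2h3c as higher and slc47a2.1, mnx2a, pcdh1g30, SLC4A1 and NBEAL2 as lower. hpxa, the haem-binding protein hemopexin, had 50.6 and 20.3 CPM in rpgrip1l-/- and 4.5 and 9.4 CPM in WT at 5 dpf. At 2 dpf, 5.19 and 5.53 CPM were measured in CDT, 3.25 and 3.02 CPM in normal-looking and 5.1 and 4.7 CPM in WT embryos. The 5 dpf mutants were the 2 highest libraries although they differed among themselves, and the effects were 2.34 at 5 dpf (SE 0.28) and -0.26 at 2 dpf (SE 0.34), with a difference of 2.6 (SE 0.45, edgeR adjusted p = 0.000137). tnfb, a tumour necrosis factor, was at 2.07 at 5 dpf and -0.34 at 2 dpf, CH25H, which makes an oxysterol in activated macrophages, at 2.13 with at most 4 counts per library at 2 dpf, and the histone H3 gene hist2h3c had a difference of 2.39. These 3 had under 10 CPM in every library, and their class held in 7, 7 and 8 of 10 fits. PDE6H, of cone phototransduction, was at 1.08 at 5 dpf with at most 3 counts per library at 2 dpf, is set apart and held in 3.

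Of the genes that fell, mnx2a, a homeobox gene of motor neurons, had 0.15 and 0.0745 CPM in rpgrip1l-/- and 1.26 and 0.883 CPM in WT at 5 dpf. At 2 dpf, 2.3 and 2.48 CPM were measured in CDT, 1.39 and 2.43 CPM in normal-looking and 1.49 and 3.19 CPM in WT embryos. The 2 mutant libraries at 5 dpf held at most 3 counts each, at least 4.77-fold below WT, while at 2 dpf the groups overlapped (effect -0.08, difference adjusted p = 0.0094 by edgeR; 8 of 10 fits). pcdh1g30, a clustered protocadherin, was at -2.39 and 0.29 (9 of 10). NBEAL2 was at -1.48 and 0.44, with a class held in 7 of 10, and slc47a2.1, an organic cation exporter that is set apart, at -0.84 with at most 5 counts per library at 2 dpf, held in 3.

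Genes of the corticoid and fasting response were lower at 5 dpf in 13 of 46 and higher in none, beside 3.68% lower over all genes. At 2 dpf 12 were higher and 11 lower, beside 41.5% called over all genes. The difference was lower in 17 and higher in 4, a called share of 45.7% beside 23.4% over all genes. Under library size alone 26 differences were lower and none higher, where 10.7% of the called differences over all genes were higher. FBXO32, the muscle ubiquitin ligase atrogin-1 and named after its values were seen, had 5.25 and 8.64 CPM in rpgrip1l-/- and 28.1 and 16.2 CPM in WT at 5 dpf. At 2 dpf, 2.6 and 2.54 CPM were measured in CDT, 1.49 and 2.1 CPM in normal-looking and 2.12 and 2.07 CPM in WT embryos. Its level fell at 5 dpf alone, with effects of -1.67 at 5 dpf (SE 0.22) and 0.05 at 2 dpf (SE 0.33), with a difference of -1.72 (SE 0.39, edgeR adjusted p = 0.00237). Of the genes that the rule named from this list, FKBP5, set apart, was lower at 5 dpf (-0.84) and higher at 2 dpf (0.62), as given above. The others were foxo3b, PER1 (ENSDARG00000012499), also described with the clock genes, and ppargc1b. They rose at 2 dpf, by 0.86, 0.72 and 0.77, with 5 dpf effects of -0.11, -0.17 and -0.42 that were not called.

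Among the lists, the cytosolic ribosome and the respiratory chain held the most genes called at 2 dpf alone, 75 each. Of 82 tested cytosolic ribosomal protein genes, 80 were lower in 2 dpf mutants and none higher, while at 5 dpf 4 were lower and none higher. Over all genes 25.2% were lower at 2 dpf and 3.68% at 5 dpf. The difference was higher in 79, a share of 96.3% beside 23.4% called over all genes. The median effect of these ribosomal genes was -0.91 at 2 dpf and -0.11 at 5 dpf. Under library size alone the median at 2 dpf was -0.38 beside 0.46 for all genes, 73 stayed lower at 2 dpf, and 62 differences were higher and 1 lower. A change of scaling moves all genes nearly alike, so it cannot test how far the group lay below the bulk of genes. rps20 had 3215 and 3168 CPM in rpgrip1l-/- and 3756 and 3292 CPM in WT at 5 dpf. At 2 dpf, 2172 and 2564 CPM were measured in CDT, 2455 and 2375 CPM in normal-looking and 5498 and 5609 CPM in WT embryos. Both 2 dpf WT libraries were above the 8 others, and the effects were -0.14 at 5 dpf (SE 0.09) and -1.22 at 2 dpf (SE 0.07), with a difference of 1.07 (SE 0.11, edgeR adjusted p = 2.86e-07). Of 108 genes of the respiratory chain, 97 were lower at 2 dpf and none higher, with 80 higher differences (74.1%) and medians of -0.69 at 2 dpf and -0.11 at 5 dpf. Under library size alone 46 were lower and 11 higher at 2 dpf, and the differences were 12 higher and 3 lower. cox6b1, a subunit of complex IV, was at -1.31 at 2 dpf and -0.26 at 5 dpf.

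Many proteasome, replication and histone genes were lower at 2 dpf under TMM, a direction that did not hold under library size alone. Over all genes under TMM, 25.2% were lower and 16.3% higher at 2 dpf, and 3.68% lower and 2.18% higher at 5 dpf. Of 47 proteasome genes 36 were lower at 2 dpf and none was called at 5 dpf. The differences were 27 higher and 2 lower (61.7% called, beside 23.4% over all genes). Under library size alone 20 proteasome genes were higher at 2 dpf, 1 was lower, and the differences were 0 higher and 3 lower. Of 95 genes of replication and the cell cycle, 43 were lower and 9 higher at 2 dpf and 14 higher and 1 lower at 5 dpf. The differences were 48 higher and 1 lower (51.6% called). Under library size alone 56 of these genes were higher and 3 lower at 2 dpf, and the differences were 10 higher and 13 lower. Of 15 histone genes with enough counts, 9 were lower at 2 dpf, 2 were higher at 5 dpf, and 11 differences were higher (73.3%). With library size alone 2 were higher and 1 lower at 2 dpf, and 2 differences were higher. AURKB, a mitotic kinase, reversed, with 0.4 at 5 dpf and -0.59 at 2 dpf (7 of 10 fits), and its 2 dpf effect was -0.06 under library size alone.

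Most hatching and epidermal genes were lower at 2 dpf under TMM, a direction that weakened or turned under library size alone. Of 10 hatching gland genes, 6 were lower and none higher at 2 dpf, beside 25.2% and 16.3% over all genes. Their differences were 5 higher and none lower (50% called, beside 23.4% over all genes). Under library size alone 3 were lower and 2 higher at 2 dpf, with a median of -0.12, and 3 differences were higher and none lower. he1.1, the hatching enzyme, had 535 and 522 CPM in CDT, 466 and 489 CPM in normal-looking and 1150 and 1230 CPM in WT embryos at 2 dpf, an effect of -1.24 (SE 0.1) that stayed at -0.72 under library size alone, and 2.31 CPM at most at 5 dpf. Of 47 keratin and epidermal genes, 27 were lower and 4 higher at 2 dpf, beside 25.2% and 16.3% over all genes. On this list 19 differences were higher and 7 lower (55.3% called, beside 23.4% over all genes). This 2 dpf direction turned under library size alone, with 18 higher and 13 lower, and the differences were 13 higher and 11 lower. krt4, an epidermal keratin and among the most abundant transcripts here, was at -0.73 and 0.06.

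In the other direction, matrix and adhesion genes were higher in mutants at 2 dpf. Over all genes 16.3% were higher and 25.2% lower at 2 dpf, and 2.18% higher and 3.68% lower at 5 dpf. Of 112 collagen and matrix genes, 65 were higher and 8 lower at 2 dpf, and 8 were higher and 4 lower at 5 dpf. The difference was lower in 37 and higher in 6 (38.4% called, beside 23.4% over all genes). Under library size alone it was lower in 70 and higher in 1, where 10.7% of the called differences over all genes were higher. FN1 (ENSDARG00000006526), fibronectin, had 99.8 and 83.2 CPM in rpgrip1l-/- and 95.1 and 99.8 CPM in WT at 5 dpf. At 2 dpf, 220 and 155 CPM were measured in CDT, 131 and 114 CPM in normal-looking and 68.7 and 58.3 CPM in WT embryos. All 2 dpf mutant libraries exceeded 2 dpf WT, CDT exceeded the normal-looking mutants by 0.62 (edgeR adjusted p = 0.0178), and the effects were -0.09 at 5 dpf (SE 0.13) and 1.25 at 2 dpf (SE 0.12), with a difference of -1.34 (SE 0.17, edgeR adjusted p = 3.05e-06). col17a1a, a collagen of epidermal attachment, was at 1.25 at 2 dpf and 0.33 at 5 dpf, and col4a6, of basement membrane, rose at both ages by different amounts, 1.35 and 0.42 (8 of 10 fits for each). Among 43 protocadherin genes 20 were higher and 1 lower at 2 dpf, with 6 lower differences and none higher, a share of 14.0% that is below the 23.4% over all genes. Their median difference was -0.82 all the same, and the share was not matched for abundance. Under library size alone 15 protocadherin differences were lower and none higher. The lens genes BFSP1 and crybb1l1 were at 1.66 and 0.62 at 2 dpf and -0.28 and 0.04 at 5 dpf; 13 of 56 lens genes had a lower difference and 1 a higher one, a share of 25% that is near the 23.4% over all genes.

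Genes of the hedgehog pathway, a list of targets and of pathway factors such as GLI2 and GLI3, differed little as a group. The median effect was 0.19 at 2 dpf and the median difference -0.10. Of 25 tested, 9 were higher and 3 lower at 2 dpf, beside 16.3% and 25.2% over all genes, and none was called at 5 dpf. The difference was lower in 6 and higher in 1. Under library size alone it was lower in 12 and higher in 0, where 10.7% of the called differences over all genes were higher. GLI1, a transcription factor and direct target of the pathway, had 5.03 and 5.66 CPM in rpgrip1l-/- and 7.02 and 5.87 CPM in WT at 5 dpf. At 2 dpf, 8.74 and 7.06 CPM were measured in CDT, 8.36 and 9.25 CPM in normal-looking and 4.39 and 3.38 CPM in WT embryos, with effects of -0.27 at 5 dpf (SE 0.21) and 1.09 at 2 dpf (SE 0.19), with a difference of -1.36 (SE 0.28, edgeR adjusted p = 0.00102). PTCH1, the receptor and also a target, was at 0.65 at 2 dpf and -0.32 at 5 dpf. The share of genes with a called difference, 28.0%, was near the 23.4% over all genes.

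**Figure D4:**
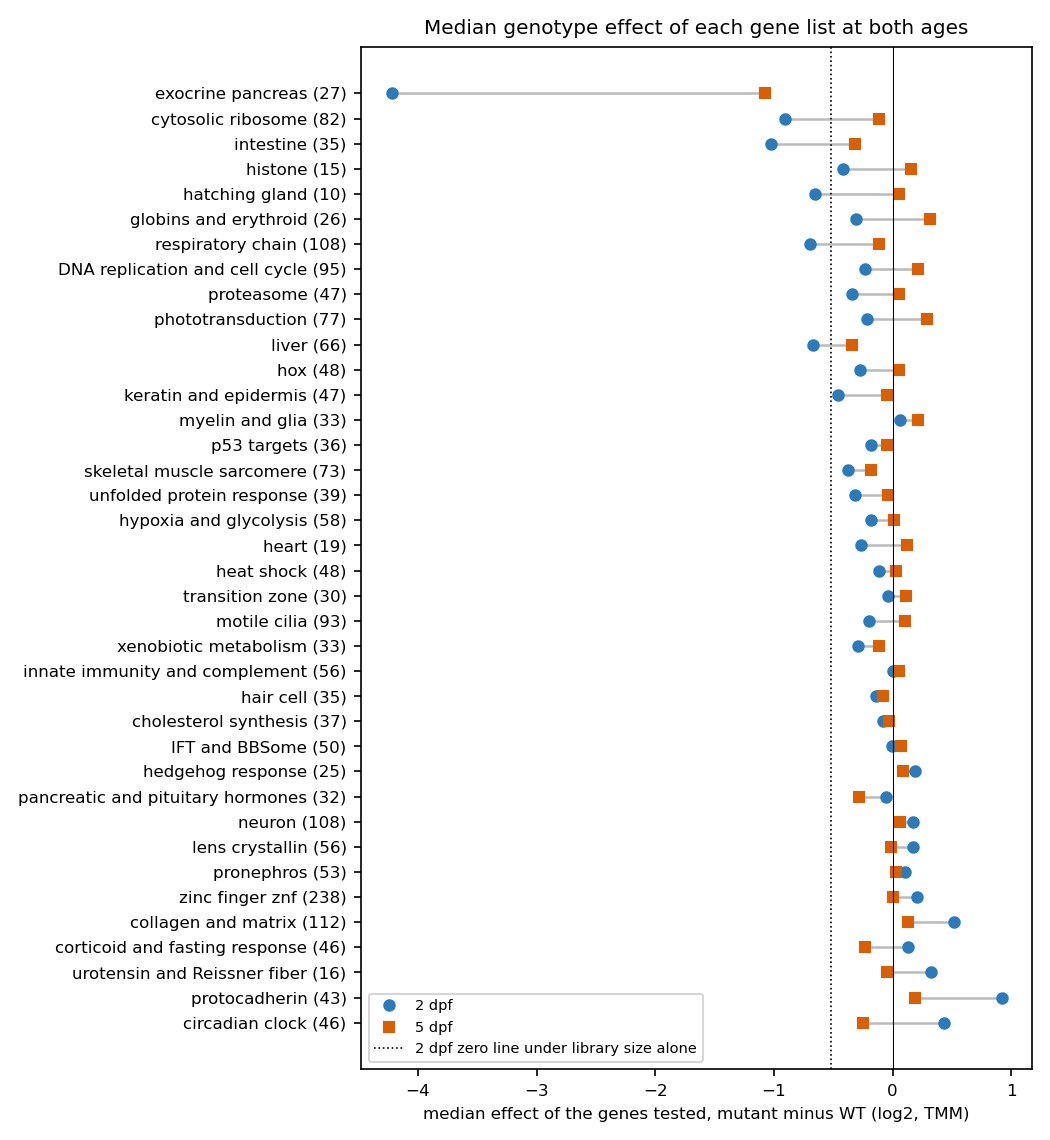
Median effect (log2, mutant minus WT, TMM scaling) over the tested genes of 38 lists, with the number of genes tested in brackets, at 2 dpf (circles) and 5 dpf (squares), ordered by the median difference. Most squares lie within 0.35 of 0 while circles spread further; the exocrine pancreas, at -4.22 and -1.07, rests at 2 dpf on genes set apart, and the dotted line marks 0 at 2 dpf under library size alone.

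The genes of the 2 dpf class with the largest differences by the naming rule were mostly near the limit of detection. SRCIN1 had 0.901 and 1.79 CPM in rpgrip1l-/- and 1.26 and 2.84 CPM in WT at 5 dpf. At 2 dpf, 1.18 and 1.97 CPM were measured in CDT, 1.76 and 1.25 CPM in normal-looking and 0.235 and 0 CPM in WT embryos, at least 5.96-fold higher in mutants at 2 dpf, and WDR20 (ENSDARG00000041239) was at 2.36 at 2 dpf (edgeR adjusted p of the difference = 0.000297). ano2a and gjd5, a chloride channel and a gap junction gene, had at most 1.3 CPM at 2 dpf and are set apart, being at least 3.26-fold and 2.22-fold higher in mutants (9 and 6 of 10 fits). The 5_8S_rRNA entry (ENSDARG00000081218), a ribosomal RNA that poly(A) selection should remove and that has near-identical copies, was at 2.56 at 2 dpf and -1.41 at 5 dpf. DUOXA1, needed for the maturation of a dual oxidase, had 0.15 and 0.67 CPM in rpgrip1l-/- and 0 and 0.0631 CPM in WT at 5 dpf. At 2 dpf, 0.59 and 0.254 CPM were measured in CDT, 0.0929 and 0.918 CPM in normal-looking and 6.12 and 7.7 CPM in WT embryos. It was lower in every 2 dpf mutant library than in 2 dpf WT, as the rule requires, at -3.79 (SE 0.4). Its difference of 7.13 includes a 5 dpf contrast of at most 9 counts per library (9 of 10 fits). tcnba, crp5, AOC1 and mbpa, the rest of that group, are set apart: each had at most 1 count in a mutant library at 2 dpf and 1.72 and 2.07, 1.18 and 0.845, 0.941 and 0.563 and 1.02 and 1.31 CPM in WT, and none differed at 5 dpf. With the genes set apart left out, trim105 followed, at -3.87 at 2 dpf, and then ms4a17a.17, rln3a and aqp10b, each under 0.4 CPM in every 2 dpf library.

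Kept effects were more often decreases under TMM, while those kept under all 3 scalings were 39 decreases and 40 increases. By the rule the decreases with the largest smaller effect were KCNJ1, s100a11, tmem176l.3a, commd5 and cfhl2. KCNJ1 (ENSDARG00000090635), an inward rectifier potassium channel gene present in several copies (9 of 10 fits), had 2.93 and 2.9 CPM in rpgrip1l-/- and 11.2 and 7.7 CPM in WT at 5 dpf. At 2 dpf, 2.24 and 2.1 CPM were measured in CDT, 3.44 and 3.28 CPM in normal-looking and 9.72 and 7.23 CPM in WT embryos. Mutant libraries lay below WT at both ages, as the rule requires. The factor was similar, with effects of -1.69 at 5 dpf (SE 0.24) and -1.66 at 2 dpf (SE 0.2) and a difference of -0.03 with a 95% interval from -0.7 to 0.63. Altogether 4 identifiers named KCNJ1 were kept decreases; their reads may be split between copies. commd5 had 7.06 and 5.59 CPM in rpgrip1l-/- and 16.6 and 14.1 CPM in WT at 5 dpf. At 2 dpf, 11 and 12.7 CPM were measured in CDT, 10.9 and 12.7 CPM in normal-looking and 33.8 and 32.8 CPM in WT embryos. The groups did not overlap at either age, again as the rule requires, and the difference of 0.21 had an interval from -0.21 to 0.63.

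s100a11, a calcium-binding protein, was at -1.46 at 5 dpf and -1.41 at 2 dpf, with a difference of -0.06 (interval -0.48 to 0.37; 9 of 10 fits). tmem176l.3a was at -1.36 and -1.58, and cfhl2, related to complement factor H, at -1.25 and -1.46 (8 and 7 of 10 fits). In cfhl2 the tail groups differed, CDT minus normal-looking being -0.86 (edgeR adjusted p = 0.0215). A kept effect depends on scaling, because the difference moves with the 2 dpf centre: 39 of the 244 kept decreases and 40 of the 89 kept increases kept that class under all 3 scalings.

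The kept increases by the rule were pde4cb, cntn2, VSX1, gbgt1l3 and CD109. VSX1, a homeobox factor of retinal bipolar cells, had 20.5 and 16 CPM in rpgrip1l-/- and 8.94 and 9.59 CPM in WT at 5 dpf. At 2 dpf, 37.5 and 31.3 CPM were measured in CDT, 22.8 and 41 CPM in normal-looking and 14.2 and 16 CPM in WT embryos. All mutant libraries exceeded WT of the same age, as the rule requires, with effects of 0.98 and 1.15 and a difference of -0.17 (interval -0.7 to 0.36). pde4cb, a cAMP phosphodiesterase, was at 1.31 and 1.26, the axonal adhesion gene cntn2 at 1.11 and 1.06, the glycosyltransferase gbgt1l3 at 0.89 and 1.14 and CD109 at 1.03 and 0.87, with classes held in 8, 7, 10 and 3 of 10 fits. Under library size alone these 5 differences became -0.37, -0.37, -0.6, -0.68 and -0.26, and all 5 left the class. MMP9, a matrix metalloproteinase, and TFAP2C, an epidermal transcription factor, held it in all 10 fits and all 3 scalings, at 0.89 and 0.72 and at 0.56 and 0.46; both were named after their values were seen.

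**Figure D5:**
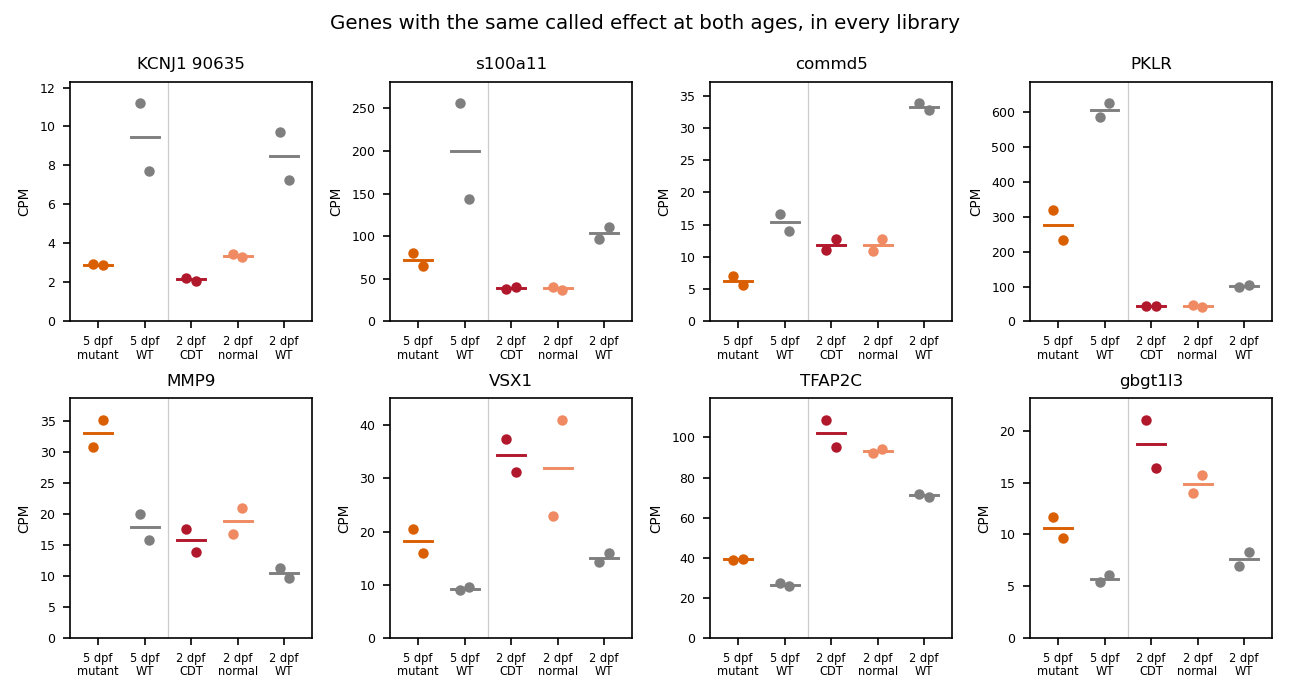
CPM in each library (points) with the group mean (bar) for 8 genes whose effect was called at both ages with a bounded difference; digits after a symbol are the end of the identifier. The upper row is lower in mutants and the lower row higher in mutants at both ages.

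Many liver genes were lower at both ages, and the list held 12 kept genes of 66 (1.58% over all genes). At 2 dpf 53 were lower and 2 higher (25.2% lower over all genes). At 5 dpf 28 were lower and none higher (3.68% lower over all genes), and the medians were -0.67 and -0.34. A further 11 fell at both ages by different amounts and 19 changed at 2 dpf alone. Under library size alone 27 were lower and 7 higher at 2 dpf. Of the 66 liver genes 7 are set apart, and 28 of the 33 called differences were left without them. PKLR, the liver and red cell pyruvate kinase, was kept though not on that list and was named after its values were seen: it had 319 and 233 CPM in rpgrip1l-/- and 587 and 626 CPM in WT at 5 dpf. At 2 dpf, 45.6 and 45.3 CPM were measured in CDT, 48.2 and 42.5 CPM in normal-looking and 98.5 and 104 CPM in WT embryos, with effects of -1.14 and -1.16 and a difference of 0.03 (interval -0.27 to 0.32). The fibrinogen genes FGB, fga and FGG, of clotting, were kept decreases, at -0.39, -0.51 and -0.35 at 5 dpf and -0.46, -0.7 and -0.65 at 2 dpf (8, 8 and 3 of 10 fits). Their 2 dpf effects under library size alone were 0.06, -0.17 and -0.13, and all 3 left the class; PKLR, at -0.63, left it too. apoeb and apoa1a, apolipoproteins also made in the yolk layer, fell at 2 dpf, to effects of -1.13 and -1.28, and were at 0.14 and -0.28 at 5 dpf.

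Digestive enzymes of the exocrine pancreas fell at 5 dpf, in 21 of 27 genes with a median of -1.07, beside 3.68% lower over all genes. Trypsin prss59.2 had 3346 and 1625 CPM in mutants and 7033 and 4603 CPM in WT at 5 dpf, an effect of -1.23 (SE 0.19). The 16 called differences on this list, all higher, belonged to genes set apart, and none was called among the 6 other genes. At 2 dpf prss59.2 had 0.118 and 0.318 CPM in CDT, 0.186 and 0.131 CPM in normal-looking and 51.3 and 58.9 CPM in WT embryos, so whether pancreas genes differ by genotype at 2 dpf cannot be told apart from the level common to the genes set apart. The intestine and phototransduction lists were affected likewise, with 8 of 17 and 11 of 24 differences left without those genes, whereas the ribosome, respiratory chain, replication, proteasome and globin lists lost none and the clock list none.

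Genes of the cilium itself held few called differences between the ages under TMM. Of 30 transition zone genes 2 had a called difference (6.67%), of 50 intraflagellar transport and BBSome genes 5 (10%) and of 93 motile cilia genes 7 (7.53%), all under the 23.4% over all genes. Under library size alone, 1 transition zone difference was higher and 2 were lower. Of the transport and BBSome differences 12 were then lower and none higher, and of the motile cilia differences 3 were lower and none higher. Over all genes 634 differences were higher and 5292 lower in that setting. These lists were not matched for abundance, with which the share called rose, so the lower shares may reflect the level of the genes. The transition zone gene tmem107 had 11.6 and 11.3 CPM in rpgrip1l-/- and 11.2 and 9.65 CPM in WT at 5 dpf. At 2 dpf, 9.62 and 7.76 CPM were measured in CDT, 6.87 and 7.15 CPM in normal-looking and 15.8 and 15.6 CPM in WT embryos. It was lower in mutants at 2 dpf alone, with effects of 0.14 at 5 dpf (SE 0.16) and -1.01 at 2 dpf (SE 0.14), with a difference of 1.15 (SE 0.21, edgeR adjusted p = 0.000253), while rpgrb was higher at 2 dpf (0.87; class in 2 of 10 fits). In the urotensin and Reissner fiber group urp2, a urotensin-related peptide of neurons that contact the cerebrospinal fluid, had 3.15 and 5.21 CPM in rpgrip1l-/- and 1.66 and 2.4 CPM in WT at 5 dpf. At 2 dpf, 0.649 and 0.254 CPM were measured in CDT, 0.929 and 1.38 CPM in normal-looking and 1.88 and 1.78 CPM in WT embryos. Mutants were below WT at 2 dpf and above it at 5 dpf in every library, with effects of 1.04 at 5 dpf (SE 0.34) and -1.31 at 2 dpf (SE 0.4), with a difference of 2.35 (SE 0.52, edgeR adjusted p = 0.00189); the 5 dpf effect was not called (edgeR adjusted p = 0.0724). urp1 and sspo, which encodes the fiber protein, had differences of 0.39 (95% interval -0.41 to 1.2) and -1.76 (interval -3.37 to -0.15), neither called.

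The classes were set by the mean of the tail groups against shared WT libraries, so the sign of each group singly adds nothing to them. CDT and normal-looking mutants differed from each other in 81 genes (0.385%), 4 of them reversed and 7 kept. Gene order was taken from the RefSeq gene table of assembly GRCz12tu, for the 7531 tested genes with a unique symbol found there. Next to here means consecutive among these placed genes on a chromosome, at any distance and with all other genes skipped. By this order 10 of the 65 reversed genes placed lay next to another reversed gene, against 1.70% of all placed genes. They were irg1l with si:ch211-153b23.3 and si:ch211-153b23.4, hbae1.2 with hbae1.3 and hbae3, myhz1.1 with myhz1.2, and rdh12l with ca2. Of 149 kept genes placed, 18 had a kept neighbour, among them her15.1 with her15.2 and anxa1c with anxa1d. That was 12.1%, against 3.92% of all placed genes. The other classes lay nearer to all placed genes, with 38.2% against 32.7% for the 2 dpf class and 3.92% against 2.71% for the 5 dpf class.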

How the data were processed

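RNA of pools of 30 to 35 whole embryos was poly(A) selected and sequenced as paired reads. Per the labels and the methods, the authors used Trim Galore 0.4.4 for trimming, STAR 2.7.3a for alignment against GRCz11 and HTSeq 0.12.3 for counting. They deposited counts per gene, unnormalized. Counter entries that name no gene entered neither the library sizes nor the tests. Reads on no annotated feature made up 45.6% to 47.3% of the entries per library. No other per-sample column was left unused.

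Of 32057 identifiers, 28988 had a symbol, and 21016 passed edgeR's filterByExpr by group. Counts of all 10 libraries were fitted in R 4.3.3 with edgeR 4.0.16 (TMM scaling, quasi-likelihood F test, 1 term per group, 5 residual degrees of freedom), and p-values were adjusted by Benjamini-Hochberg over all genes tested, with a threshold of 0.05. CPM used TMM-scaled library sizes. Replicates differed by more than counting noise in every group. Alternatives were DESeq2 1.42.0, upper quartile scaling, scaling by library size, omission of the filter, at least 10 counts in every library, a replicate block, each tail group alone and each library left out. After seeing the data, 2 were added: the 2 dpf WT counts less a share of the 5 dpf WT level, and the genes set apart left out. In counts simulated for the difference between ages over 20503 genes, edgeR called 71 of 100 genes changed by 2-fold, 91 of 100 changed by 4-fold and 7 unchanged genes. The changed genes, 200 in all, were altered in 5 dpf mutants alone and were expected at 10 or more counts in every library. Mutants were set equal to WT at 2 dpf, without the broad 2 dpf effect or scaling shift of the real libraries. The simulation therefore does not measure the error rate of the calls made here.

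Named genes were, per class and direction, up to 5 with a gene symbol that is not a clone name, a mean CPM of 1 or more and mutant libraries apart from WT libraries at each age called, ranked by the difference (for kept genes, by the smaller effect), up to 4 genes with the smallest p from each list, and rpgrip1l, urp1, urp2 and sspo. Genes named beside the rule are said to be chosen after their values were seen. The members and lists were chosen with earlier results of these data known. Near-identical copies can split reads, and counting was run at the default setting of HTSeq, which takes strand into account; whether the library kit marked strand is not given in the sources used here, so reads of overlapping genes may not be separated. RefSeq GRCz12tu served only for gene order, since the files use another build. The values of 1 gene are not reported here.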

Additional observations from a re-analysis of the deposited data

Results flagged for a closer look

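Values here are listed because the genotype effect itself differed between 5 and 2 dpf in edgeR (quasi-likelihood, adjusted after Benjamini and Hochberg). This held for 4917 genes, and in 147 the effects at the 2 ages were called with opposite signs. Groups of 2 libraries are too small for a test of single outlying libraries.

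Among genes that reversed upwards the difference (log2, 5 dpf effect minus 2 dpf effect) was 6.14 for ctsbb, 6.07 for PRPH2, 4.45 for DAO, 3.1 for DPEP1, 2.8 for irg1l, 2.59 for SLC12A1, 2.5 for SOAT2 and 2.42 for SERPINH1. Among genes that reversed downwards it was -3.32 for PER2, -2.76 for NACC1, -2.44 for UBP1, -2.31 for lonrf4 and -2.15 for mast4.

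Among genes called at 2 dpf alone and higher there in mutants, the difference was -4.1 for SRCIN1, -3.97 for 5_8S_rRNA, -3.86 for ano2a, -3.76 for WDR20 and -3.62 for gjd5. Among those lower at 2 dpf it was 7.13 for DUOXA1, 6.69 for tcnba, 6.62 for crp5, 6.31 for AOC1, 5.97 for mbpa, 5.19 for trim105, 4.99 for ms4a17a.17, 3.92 for rln3a and 3.71 for aqp10b. The fitted values of genes with 3 counts or fewer in every library of a group depend on the prior count and bound nothing.

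Among genes called at 5 dpf alone the difference was 4.06 for CH25H, 3.79 for PDE6H, 2.6 for hpxa, 2.41 for tnfb, 2.39 for hist2h3c, -3.1 for slc47a2.1, -3.07 for mnx2a, -2.68 for pcdh1g30, -2.11 for SLC4A1 and -1.91 for NBEAL2.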

How the results depend on the processing

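The count of 4917 differences ranged from 3287 to 4791 with 1 library left out. Over those fits higher differences ranged from 2127 to 3061, lower ones from 1160 to 1730, calls at 5 dpf from 498 to 1287, calls at 2 dpf from 6098 to 8930, reversed genes from 66 to 149, the 2 dpf class from 2593 to 3900, the 5 dpf class from 113 to 259 and kept genes from 125 to 351. DESeq2 gave 1141 lower differences, 767 calls at 5 dpf, 167 genes of the 5 dpf class and 194 kept. Library size alone gave 634 higher and 5292 lower differences and 564 kept genes, and 50 of the 147 reversed, 1815 of the 4022 of the 2 dpf class, 40 of the 258 of the 5 dpf class and 79 of the 333 kept genes stayed in their class. Of the called differences 62.6% were higher with TMM, 67.7% with DESeq2, 48.5% with upper quartile scaling and 10.7% with library size alone. Replicate numbers did not pair the samples (correlations of deviations from -0.050 to 0.031 over 10 pairs), and a replicate block gave 4862 differences. Among single genes the sign turned for s100a11 (-0.41 to 0.42 with 1 library left out, the upper end without 5 dpf WT replicate 1). With a share of the 5 dpf WT level taken from 2 dpf WT, it turned to a called difference for opn1lw2 (-5.02), GNGT2 (-5.55), opn1sw2 (-4.77) and GNAT2 (-1.42). In that setting it also turned for MATN1 (-0.75), ctrb.3 (-2.07), opn1mw1 (-2.59) and prss1 (-0.63), whose differences were then not called. That last setting was chosen after seeing the data. The cause of these shifts was not tested beyond what each setting changes.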

Other observations

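Several lists not described above changed direction with the scaling at 2 dpf. Of 73 sarcomere genes of skeletal muscle, 40 were lower and 18 higher at 2 dpf, 14 were lower and 2 higher at 5 dpf, and the difference was higher in 27 and lower in 17 by edgeR's quasi-likelihood test; under library size alone 33 were higher and 18 lower at 2 dpf, and the difference was higher in 12 and lower in 28. Of 39 genes of the unfolded protein response, 23 were lower and 1 higher at 2 dpf, with 13 higher differences and none lower (33.3% called). With library size alone 17 were higher and 4 lower at 2 dpf, and the differences were 4 higher and 8 lower. HSPA5, the main chaperone of the endoplasmic reticulum, was at 0.34 at 5 dpf and -0.57 at 2 dpf, or -0.04 at 2 dpf under library size alone. Of 48 hox genes, 14 were lower and 1 higher at 2 dpf and none was called at 5 dpf, with 10 higher differences and 1 lower, a share of 22.9% that is near the 23.4% over all genes tested. Scaled by library size alone, 16 were higher and none lower at 2 dpf, and the differences were 0 higher and 5 lower.

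Phototransduction genes were higher at 5 dpf in 14 of 77 and lower in 3, beside 2.18% and 3.68% over all genes. Of these 77, 33 are set apart, and 11 of the other 44 had a called difference, a share of 25% that is near the 23.4% over all genes tested. Over all 77, 22 differences were higher and 2 lower, or 14 and 8 under library size alone. Of 58 genes of hypoxia and glycolysis 18 differences were higher and 6 lower (41.4% called, beside 23.4% over all genes), or 3 and 16 under library size alone. Of 238 zinc finger genes 10 differences were higher and 25 lower, a share of 14.7%, or 2 and 61 under library size alone.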
